A study of Mus musculus with 8 samples.

Results

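The genes described here encode the core of MHC class II antigen presentation: the chains H2-Aa, H2-Ab1 and H2-Eb1, the invariant chain Cd74, the peptide loading factors H2-DMa and H2-DMb1, and the class II transactivator Ciita. They were taken by name, 7 of the 54091 rows of the deposited table, and all 7 were among the 15657 genes with enough reads to be tested. They were chosen with the difference between the genotypes already known, so their differences are given as a description, with no test of their own. RNA was sequenced from white quadriceps, the glycolytic portion of a large muscle of the thigh. All mice were male, were 11 to 14 weeks old and ate a diet with 60% fat over 7 days. The 4 Cre libraries (replicates 5 to 8) came from mice whose label gives a CKM Cre and a knockout of Acot2 in muscle. The 4 Loxp libraries (replicates 1 to 4) came from Loxp/Loxp mice without Cre. Acot2 encodes a mitochondrial acyl-CoA thioesterase. Ckm is the muscle creatine kinase gene, whose promoter is active in striated muscle fibres, whereas class II molecules are made mainly by antigen-presenting cells. Cre was present in 1 group only, so that its own effect and the loss of Acot2 cannot be told apart. The sources do not state whether every library is a different mouse, and a p-value measures the spread between these samples only.

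Class II molecules carry peptides from material taken up by a cell to its surface, where CD4+ T cells read them. An alpha and a beta chain pair in the endoplasmic reticulum around the invariant chain Cd74, which blocks the groove and guides the complex to endosomes. There proteases cut Cd74 down to a short fragment, and H2-DM exchanges that fragment for a peptide. In muscle, resident macrophages and dendritic cells are the usual carriers of these molecules. Their genes share a promoter module, an X box bound by the RFX factors and a Y box bound by NF-Y, on which Ciita acts as a coactivator that does not itself bind DNA.

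Letters of that module were looked for in the promoters of the genes. The RefSeq promoter table (GRCm38.p6) covers 250 bases before to 50 bases after each start and has entries for 4 of the 7 genes. It was searched on both strands for the X box half-site GNAAC, the Y box GATTGG, and for the half-site followed by GATTGG after 24 to 27 bases. The spacing was chosen with these sequences in view. The stretches of H2-Aa (chr17:34287824-34287953, minus strand) and H2-Eb1 (chr17:34305737-34305866, plus strand) are the 130 bases before the start, and those of H2-DMb1 (chr17:34153091-34153110 and chr17:34153123-34153143, plus strand) are the surroundings of its matches. The RefSeq start of H2-DMb1 lies downstream of the GENCODE start used for its span below, so these stretches fall inside that span. They are shown 5′ to 3′ because 2 class II chains and H2-DMb1 share this arrangement, with the half-site and GATTGG in capitals.
H2-Aa: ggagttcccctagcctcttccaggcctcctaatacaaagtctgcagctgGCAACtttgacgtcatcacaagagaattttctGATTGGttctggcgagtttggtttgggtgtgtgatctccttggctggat
H2-Eb1: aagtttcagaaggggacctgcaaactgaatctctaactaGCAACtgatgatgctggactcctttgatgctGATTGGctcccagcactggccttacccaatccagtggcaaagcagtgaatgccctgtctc
H2-DMb1, half-site: tacctaGTAACtgatgatgc
H2-DMb1, Y box: ctcagtGATTGGtctgacctg
GATTGG began 49 bases before the start in H2-Aa, 60 in H2-Eb1 and 62 in H2-DMb1, and the half-site ended 27, 26 and 27 bases ahead of it. The pair was also found in H2-Oa, H2-Ob and H2-Eb2, but not in H2-DMb2 or in either of the 2 windows listed for H2-DMa. Of all 32851 promoters, 0.234% held the pair, 16.1% held GATTGG and 84.8% held the half-site. A match is a description of the letters in these windows only.

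The targeted gene was checked first. Acot2 (chromosome 12, 83987861 to 83993873, GRCm38) had normalized counts of 325, 273, 256 and 354 in Cre replicates 5 to 8, against 2179, 3348, 4165 and 2166 in Loxp replicates 1 to 4. It fell to 10.2% of the Loxp mean, a log2 difference of -3.24 ± 0.20 (SE), with an adjusted p of 4.72e-06 in limma. A two-sided exact permutation test gave p = 0.0286, the lowest value 4 and 4 samples can reach. Of the 50-base windows of its transcript, 27.7% also occur in Acot1, Acot4 or Acot5. Acot2 was the only gene past an adjusted p of 0.05, 0.00639% of those tested. No gene was higher at that threshold (0%, and 0 with voom on the recovered reads), while 2135 genes were higher at an unadjusted p under 0.05, 13.6% of those tested. The count of genes past the threshold was 1722 without Loxp replicate 1 and 2048 without Loxp replicate 2, fits that keep both Loxp replicates 3 and 4, and 1 without those.

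The libraries held 55283991 to 109101295 recovered reads. Loxp replicates 3 and 4 stood apart from the other libraries. On the first principal component, with 34.5% of the variance, they lay at 55.2 and 56.1, and the others between -38.6 and 0.561. Genes with short exon sequence were low in these libraries: in the length quartile of genes with up to 2391 exonic bases, the median deviation from the mean of all libraries was -0.29 in Loxp replicate 3 and -0.31 in Loxp replicate 4, on the log2 scale. Cre replicate 8 held heart transcripts, with Myl7 at a normalized count of 1124.4 and Nppa at 1648, against at most 4.14 and 6.11 in the other libraries. The differences of the class II genes, and the medians and most differences of the other lists, are given with and without Loxp replicates 3 and 4. The skeletal muscle fibre markers Acta1, Ckm, Myh4, Tnnt3, Ttn and Pvalb summed to normalized counts of 9157500 to 10611000 in Cre libraries and 8323000 to 10575000 in Loxp libraries, so that markers of the labelled tissue were present in each library.

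Of the 7 genes, 6 had normalized counts in the 4 Cre libraries that did not overlap those in the 4 Loxp libraries, all being higher in Cre. Among all genes tested, 6.06% were higher in Cre without overlap and 7.06% were lower, and since the genes were chosen on this contrast, nothing is read from the count. The median log2 difference over the 7 genes was 0.95, and it was 0.58 without Loxp replicates 3 and 4. Over all genes tested the median was 0.00257 with all libraries. In bulk muscle, more cells that carry class II and more class II RNA per cell cannot be told apart.

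**Figure D1:**
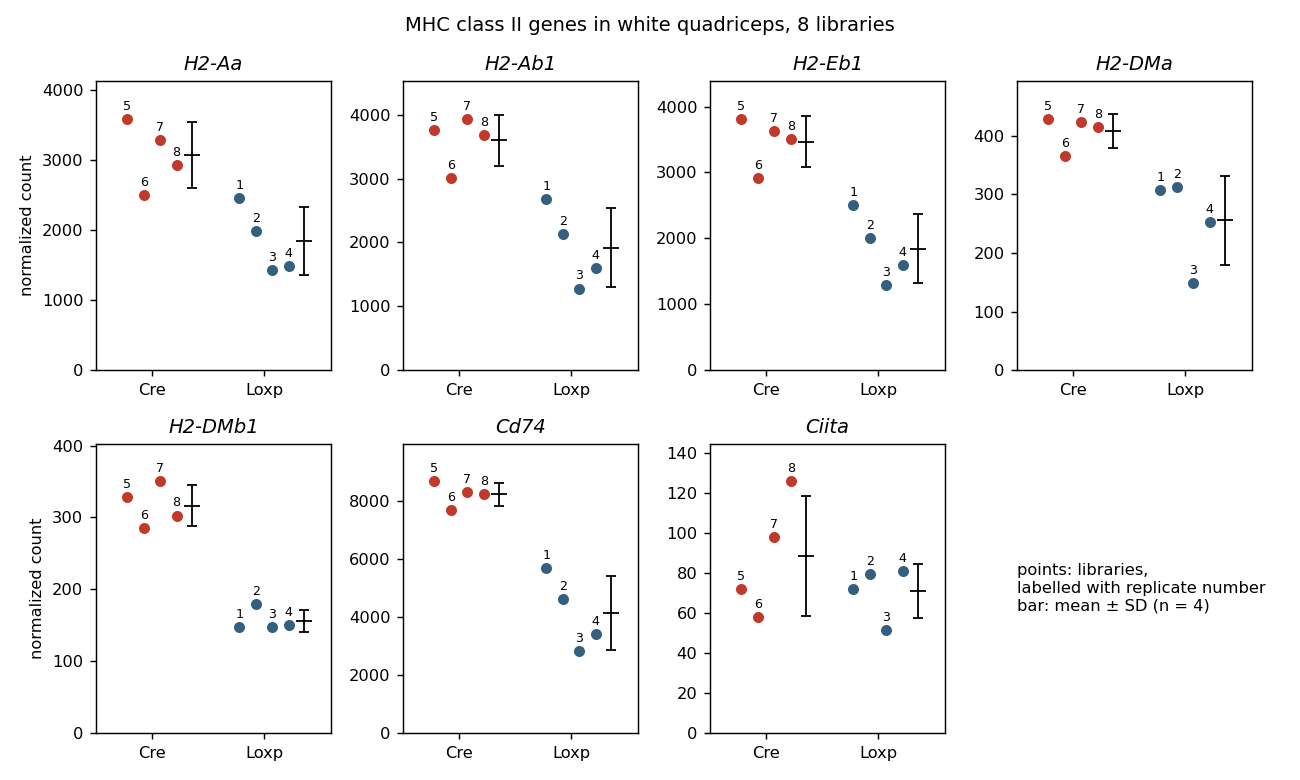
Normalized count (vertical axis, linear, from 0) of each class II gene in the 4 Cre libraries (red) and the 4 Loxp libraries (blue), 1 point per library with its replicate number and a bar for the mean ± SD (n = 4). For 6 genes the Cre points lie above the Loxp points, for Ciita the groups overlap, and Loxp replicate 3 is the lowest Loxp library for each of the 7 genes.

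The class II chains form the peptide groove. H2-Aa encodes the alpha chain of the I-A molecule and lies on the minus strand of chromosome 17 from 34282744 to 34287823 (GRCm38). H2-Aa had normalized counts of 3587, 2494, 3286 and 2932.5 in Cre replicates 5 to 8, against 2460, 1984, 1436 and 1487 in Loxp replicates 1 to 4. The groups did not overlap, but only just: Cre replicate 6 was 1.01 times Loxp replicate 1. The means were 3075 ± 471 in Cre and 1842 ± 480 in Loxp (SD, n = 4 each), a log2 difference of 0.76 ± 0.17 (SE), and 0.46 ± 0.14 without Loxp replicates 3 and 4. H2-Ab1, its beta chain partner, spans 34257689 to 34269419 on the plus strand of chromosome 17. Its normalized count was 3766, 3012, 3935.5 and 3673 in Cre replicates 5 to 8, against 2679, 2125, 1279 and 1597 in Loxp replicates 1 to 4. Again Cre replicate 6 was the lowest of its group and Loxp replicate 1 the highest of the other, 1.12-fold apart. The means were 3597 ± 405 in Cre and 1920 ± 615 in Loxp, a log2 difference of 0.95 ± 0.19 (SE), and 0.58 ± 0.13 without Loxp replicates 3 and 4.

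H2-Eb1 encodes the beta chain of the I-E molecule and spans 34305867 to 34316674 on the plus strand of chromosome 17. In normalized counts, H2-Eb1 was at 3814, 2921, 3623 and 3505 in Cre replicates 5 to 8, against 2500, 2004, 1287 and 1592.5 in Loxp replicates 1 to 4. The order of the libraries matched that of H2-Aa, with Cre replicate 5 highest and Loxp replicate 3 lowest. The means were 3466 ± 385 in Cre and 1846 ± 526 in Loxp, a log2 difference of 0.95 ± 0.18 (SE), and 0.62 ± 0.13 without Loxp replicates 3 and 4. The alpha chain that pairs with H2-Eb1 is listed as a pseudogene, H2-Ea-ps, and was at 0 in all 8 libraries, a count that allows up to 2.04 to 3.87 normalized counts (3 reads per library, counting error only). In mouse strains of the b haplotype the alpha gene is known to carry a deletion that silences it. The strain is not given in the sources used here.

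Cd74, the invariant chain, had the highest count of the 7 genes. Its locus is on chromosome 18, plus strand, 60803848 to 60812652. Cd74 had normalized counts of 8691, 7697, 8325.5 and 8249 in Cre replicates 5 to 8, against 5698, 4643, 2847 and 3418 in Loxp replicates 1 to 4. The 4 Cre values lay close together, with a coefficient of variation of 4.98% against 30.7% in Loxp, and the lowest of them was 1.35 times the highest Loxp value. The means were 8241 ± 411 in Cre and 4152 ± 1275 in Loxp, a log2 difference of 1.04 ± 0.18 (SE), and 0.68 ± 0.11 without Loxp replicates 3 and 4.

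H2-DMa and H2-DMb1 encode the alpha and beta chains of H2-DM, the endosomal factor that loads peptides. H2-DMa spans 34119541 to 34139101 on the plus strand of chromosome 17, and 10.4% of its exonic bases overlap Brd2 on the other strand, whose reads cannot be told apart if strand was not used in counting. Its normalized count was 429, 365, 423 and 414 in Cre replicates 5 to 8, against 307, 311, 149 and 253 in Loxp replicates 1 to 4. Loxp replicate 3 was the lowest by far, and without Loxp replicates 3 and 4 the log2 difference was 0.39 ± 0.17 (SE), against 0.73 ± 0.22 with all libraries. The means were 408 ± 29.1 in Cre and 255 ± 75.5 in Loxp.

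H2-DMb1 spans 34153072 to 34160230 on the plus strand of chromosome 17. Normalized counts of H2-DMb1 were 329, 285, 350.2 and 303 in Cre replicates 5 to 8, against 148, 179, 148 and 150.02 in Loxp replicates 1 to 4. It was the gene for which Loxp replicates 3 and 4 mattered least: both lay with Loxp replicate 1, and the lowest Cre value was 1.59 times the highest Loxp value. The means were 317 ± 28.7 in Cre and 156 ± 15.25 in Loxp, a log2 difference of 1.02 ± 0.17 (SE), and 0.95 ± 0.20 without Loxp replicates 3 and 4. Of the 50-base windows of its transcript, 27.2% also occur in its neighbour H2-DMb2, so reads from those stretches may not be told apart between the 2 genes. That share does not give the size of an error on its count. H2-DMb2 itself was low, at 9.03 to 58.6 normalized counts in Cre and 6.63 to 47.2 in Loxp, with a log2 difference of -0.09 (limma, adjusted p = 0.944), and -0.93 without Loxp replicates 3 and 4.

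Ciita, the coactivator on which class II transcription depends, was the gene of the 7 whose groups overlapped. It spans 10480059 to 10528418 on the plus strand of chromosome 16, and 3.45% of its exonic bases overlap Dexi on the other strand. Its normalized count was 71.7, 58.0, 97.97 and 126 in Cre replicates 5 to 8, against 71.8, 79.4, 51.4 and 80.8 in Loxp replicates 1 to 4. Cre replicate 6 lay below 3 of the Loxp libraries, and Cre replicates 7 and 8 above all 4. The means were 88.4 ± 29.9 in Cre and 70.8 ± 13.6 in Loxp, a log2 difference of 0.28 ± 0.29 (SE), and 0.16 ± 0.35 without Loxp replicates 3 and 4. Cre replicate 8, the library with heart transcripts, was the highest: without it the difference was 0.09, and without it and Loxp replicates 3 and 4 it was -0.02. The gene rests on 45 to 119 reads per library, against 1543 to 8964 for the chains and Cd74, and its coefficient of variation was 33.9% in Cre and 19.1% in Loxp.

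The differences between libraries that depend on gene length, taken here as all exonic bases of a gene, fall on these genes unequally. Cd74, H2-DMb1 and H2-Eb1 have 1679, 1681 and 1944 exonic bases and fall in the shortest of 4 length bins of equal gene number, where the median difference between Cre and Loxp over all genes was 0.27. H2-Ab1, H2-DMa and H2-Aa, with 2568, 3448 and 3798 exonic bases, fall in the next bin, where it was 0.08. Ciita, with 9535, falls in the longest, where it was -0.20. These lengths join the exons of all annotated transcripts of a gene. The principal transcripts of H2-Aa, H2-Ab1 and H2-DMa have 1128, 1212 and 1658 bases. Those of Cd74, H2-DMb1 and H2-Eb1 have 1410, 1404 and 1669. The length of the principal transcript was used neither for the bins nor for the trend. With a trend on exon length and GC content removed from each library, the differences were 0.78 for H2-Aa, 0.76 for H2-Ab1, 0.76 for H2-Eb1, 0.64 for H2-DMa, 0.79 for H2-DMb1, 0.77 for Cd74 and 0.44 for Ciita. With the trend removed and without Loxp replicates 3 and 4, the median over the 7 genes was 0.52, and the lowest was that of Ciita at 0.20. Against Loxp replicates 1 and 2 alone, 8.74% of all genes tested were higher in Cre without overlap and 49.9% had a higher estimate. The 6 genes other than Ciita are without overlap there because they are so with all 4 Loxp libraries, and nothing is read from it.

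**Figure D2:**
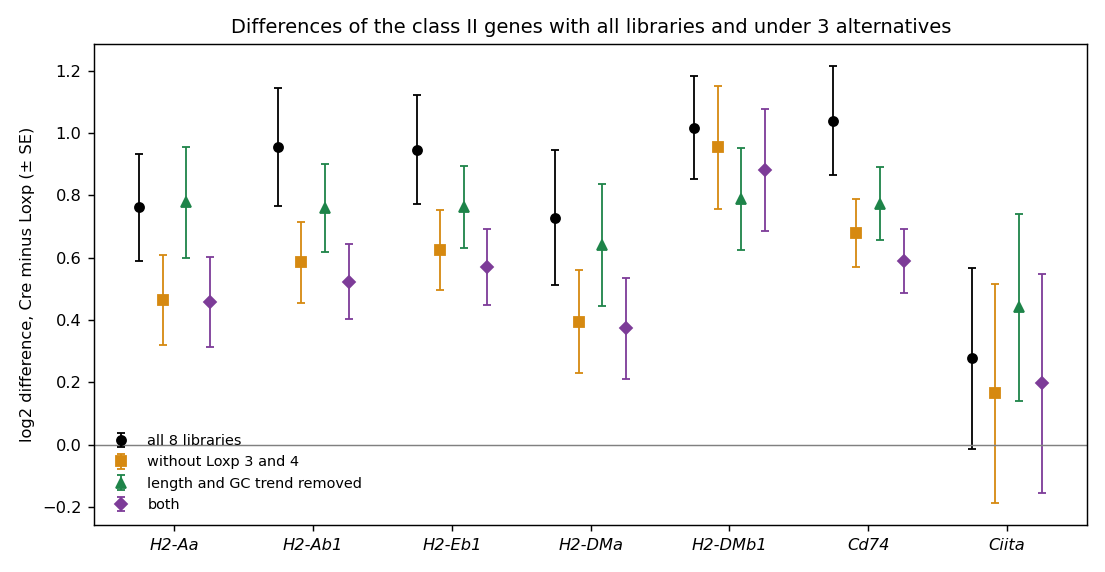
Log2 difference, Cre minus Loxp (vertical axis, ± SE), of each class II gene with all 8 libraries, without Loxp replicates 3 and 4, with the length and GC trend removed, and with both. For the 6 genes other than Ciita the points lie between 0.37 and 1.04, and with no trend removed each is lower without Loxp replicates 3 and 4, H2-DMb1 by the least. With the trend removed H2-DMb1 is higher without them, at 0.88 against 0.79. The SE bars of Ciita reach 0 or below in 3 of the 4 fits.

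Levels can be compared between genes per kilobase of their principal transcript. Cd74 was highest, at 5845 ± 291 normalized counts per kilobase in Cre and 2944 ± 904 in Loxp (SD, n = 4 each). The chains followed, with 2968 ± 334 in Cre and 1584 ± 507 in Loxp for H2-Ab1, 2726 ± 417 in Cre and 1633 ± 426 in Loxp for H2-Aa, and 2077 ± 231 in Cre and 1106 ± 315 in Loxp for H2-Eb1. The loading factors were lower, with 246 ± 17.5 in Cre and 154 ± 45.5 in Loxp for H2-DMa and 226 ± 20.4 in Cre and 111 ± 10.9 in Loxp for H2-DMb1. Ciita was lowest, at 14.7 ± 4.98 in Cre and 11.8 ± 2.26 in Loxp. The mean ± SD ranges of H2-Ab1 and H2-Aa overlapped in both groups, as did those of H2-DMa and H2-DMb1. In Loxp libraries the range of H2-Eb1 also overlapped those of the other chains, and that of Cd74 overlapped those of H2-Aa and H2-Ab1. These ranges ignore that the genes were measured in the same libraries, so no order is read from them. Within libraries, Cd74 counts were at least 1.98 times those of H2-Aa and 2.12 times those of H2-Ab1. With transcripts of 1410, 1128 and 1212 bases, Cd74 was the higher per kilobase in each library. H2-Eb1 counts were at most 1.01 times those of H2-Ab1. With a transcript of 1669 bases, H2-Eb1 was the lower per kilobase in each library. That order rests on the length used. Per kilobase of all exonic bases, 1944 for H2-Eb1 and 2568 for H2-Ab1, H2-Eb1 was the higher in each library.

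H2-Ab1, H2-Eb1 and Cd74 kept similar proportions in every library. The ratio of H2-Eb1 to H2-Ab1 normalized counts was 0.921 to 1.01 in Cre and 0.933 to 1.01 in Loxp. The ratio of Cd74 to H2-Ab1 was 2.12 to 2.56 in Cre and 2.13 to 2.23 in Loxp. Cd74 over H2-Aa differed more, at 2.42 to 3.09 in Cre and 1.98 to 2.34 in Loxp, ranges that did not overlap, and H2-Ab1 over H2-Aa was 1.05 to 1.25 in Cre and 0.890 to 1.09 in Loxp. H2-DMb1 over H2-DMa was even in Cre, at 0.732 to 0.828, and uneven in Loxp, at 0.481 to 0.989. In Loxp replicates 1, 2 and 4 it was 0.481, 0.574 and 0.592, below each Cre library. Only Loxp replicate 3, at 0.989, lay above them. Ciita per 100 Cd74 was 0.754 to 1.52 in Cre and 1.26 to 2.36 in Loxp, with overlap. These ratios use the values that chose the genes and are a description.

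**Figure D3:**
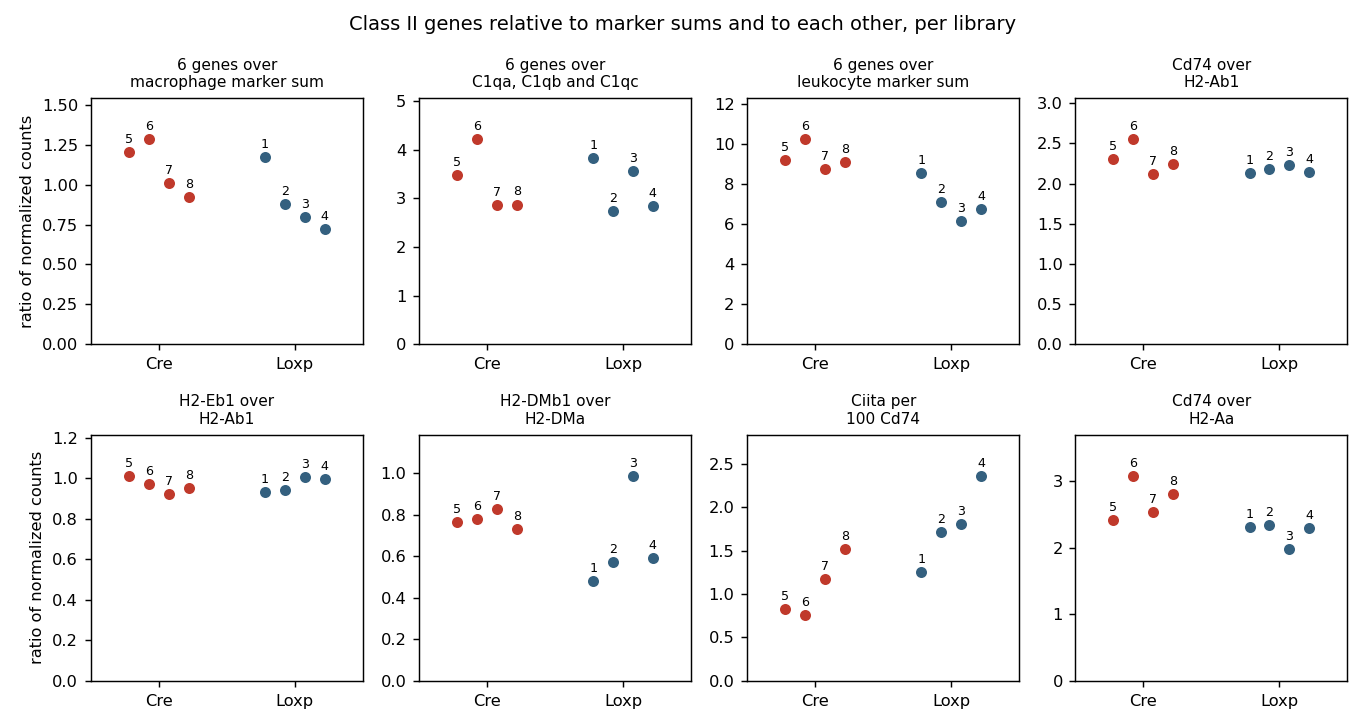
Ratios of normalized counts (vertical axes, linear, from 0) in the 4 Cre libraries (red) and the 4 Loxp libraries (blue), 1 point per library with its replicate number; the 6 genes are the class II set without Ciita. The ratio of H2-Eb1 to H2-Ab1 spans 0.921 to 1.01 over all libraries, the 6 genes over the leukocyte marker sum lie at 8.75 or above in Cre and at 8.57 or below in Loxp, and over the macrophage marker sum the groups overlap.

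The other genes of the pathway were read from a list of 13 that cover the nonclassical class II chains, the endosomal proteases and regulators of surface class II. Of these, 10 were tested and 0 passed in either direction (limma, and 0 with voom). At an unadjusted p under 0.05, 5 of the 10 were higher, against 13.6% of all genes tested. Their median difference was 0.43, and 0.38 without Loxp replicates 3 and 4, with 8 of 10 estimates above 0, against 50.3% of all genes. Ifi30, the thiol reductase that opens disulfide bonds of antigens in lysosomes, had 462 to 698 normalized counts in Cre and 279 to 367 in Loxp, a log2 difference of 0.85 ± 0.17 (SE; adjusted p = 0.0796 by limma). Ctss, the protease that makes the last cuts in Cd74 in antigen-presenting cells, had 631 to 1237 in Cre and 438 to 777 in Loxp, a difference of 0.74 ± 0.21 (adjusted p = 0.081). The lysosomal proteases Ctsd and Lgmn differed by 0.59 ± 0.14 and 0.49 ± 0.13 (adjusted p = 0.0796 for both). Without Loxp replicates 3 and 4 the differences were 0.71 for Ifi30, 0.50 for Ctss, 0.39 for Ctsd and 0.37 for Lgmn. The Ctss ranges overlapped, while those of Ifi30 did not. H2-Oa and H2-Eb2 were too low to test, and H2-Ea-ps was at 0.

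**Figure D4:**
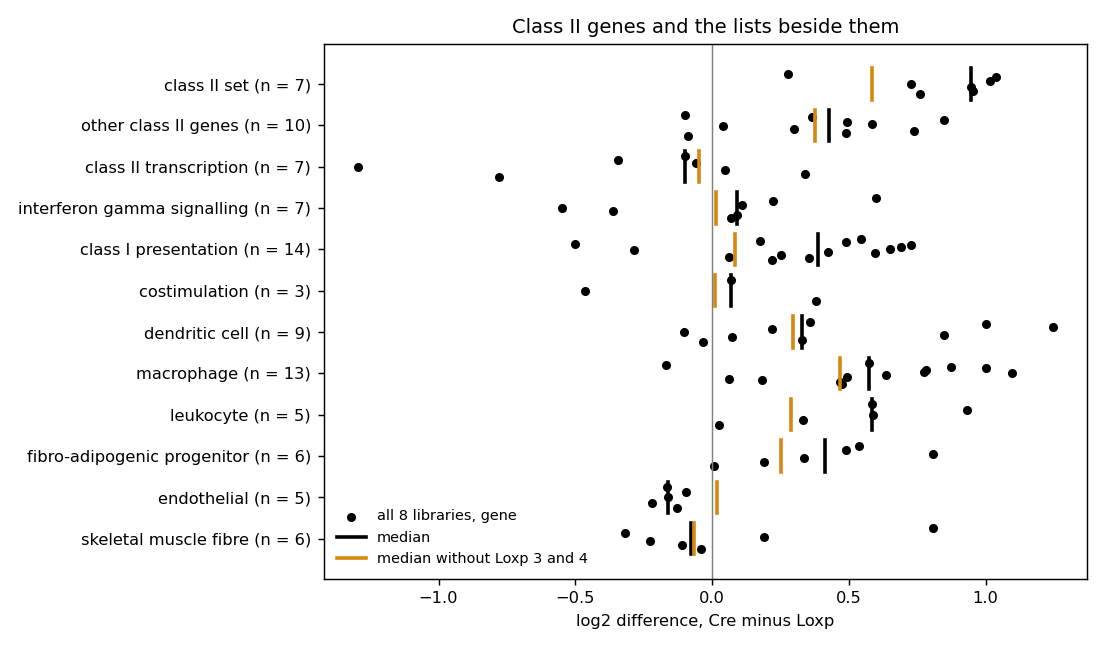
Log2 difference, Cre minus Loxp (horizontal axis), of each tested gene (points) in the class II set and in lists of related pathways and cell type markers, with the median over all 8 libraries (black) and without Loxp replicates 3 and 4 (orange). The class II set, chosen on this difference, has a median of 0.95, and leukocyte and macrophage markers have medians of 0.59 and 0.57. The medians of class II transcription factors and of endothelial and muscle fibre markers lie below 0 with all 8 libraries. B cell, T and NK cell, heart and adipocyte markers are not drawn.

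Of the 7 tested factors that bind the class II module, 0 passed (limma; 0 with voom), 0 were higher and 3 were lower at an unadjusted p under 0.05 (13.3% of all genes were lower at that level), with a median of -0.10, and -0.05 without Loxp replicates 3 and 4. Rfx5, the DNA-binding subunit of the RFX complex, had 117 to 171 normalized counts in Cre and 156 to 365 in Loxp, a log2 difference of -0.78 ± 0.26 (SE; adjusted p = 0.094 by limma), and -0.33 without Loxp replicates 3 and 4. The NF-Y subunits Nfya and Nfyc differed by -1.29 ± 0.50 and -0.35 ± 0.13 (adjusted p = 0.127 and 0.124), and without those libraries by -0.35 and -0.33. Rfxank, another RFX subunit, differed by 0.34 ± 0.17 (adjusted p = 0.204), and by 0.13 without them.

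Interferon gamma is the main inducer of Ciita outside professional antigen-presenting cells. Its own transcript, Ifng, was at 0 in 7 of 8 libraries and at 0.970 normalized counts, 1 read, in Cre replicate 5. Of the 7 tested genes of its pathway, 0 passed (limma, and 0 with voom). At an unadjusted p under 0.05, 0 were higher and 2 were lower, against 13.6% and 13.3% of all genes tested. The median was 0.09, and 0.01 without Loxp replicates 3 and 4. The kinases Jak2 and Jak1 differed by -0.55 ± 0.16 and -0.36 ± 0.14 (SE, limma, adjusted p = 0.081 and 0.135). Irf1, a transcription factor induced by interferons, had 628 to 825 normalized counts in Cre and 540 to 680 in Loxp, a difference of 0.22 ± 0.14 (adjusted p = 0.318). Socs1, the feedback inhibitor of the pathway, differed by 0.60 ± 0.34 (adjusted p = 0.271). Without Loxp replicates 3 and 4 the differences were smaller, at -0.25 for Jak2, -0.10 for Jak1, 0.08 for Irf1 and 0.24 for Socs1.

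Class I molecules display peptides made inside the cell and are carried by most cell types. The 14 class I genes in the table summed to normalized counts of 35395 to 52100 in Cre, and to 41592, 42700, 31211 and 27361 in Loxp replicates 1 to 4, so that Loxp replicates 3 and 4 were the lowest libraries. Of 14 tested genes, 0 passed (limma, and 0 with voom). At an unadjusted p under 0.05, 8 were higher and 1 was lower, against 13.6% and 13.3% of all genes tested. The median was 0.39, and 0.09 without Loxp replicates 3 and 4. The immunoproteasome subunit Psmb10 differed by 0.73 ± 0.19 (SE, limma, adjusted p = 0.0796), the loading factor Tapbp by 0.42 ± 0.13 (adjusted p = 0.0853), the transporter Tap2 by 0.60 ± 0.21 (adjusted p = 0.107) and the peptide trimming protease Erap1 by -0.50 ± 0.17 (adjusted p = 0.0921). Without those libraries they differed by 0.35, 0.20, 0.19 and -0.22. Of the costimulatory genes, Cd40 differed by 0.38, Cd86 by 0.07 and Cd80 by -0.47 (adjusted p = 0.411, 0.923 and 0.402), and without those libraries by 0.11, 0.01 and -0.59. The difference between these lists and the class II genes was not tested.

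Markers of the cells that carry class II were read beside these values. The 13 macrophage markers, which include Adgre1, Csf1r, Lyz2 and the C1q genes, summed to normalized counts of 13038 to 20614 in Cre and 8928 to 12827 in Loxp, without overlap. None passed (limma and voom, 0 of 13), and 9 were higher at an unadjusted p under 0.05, against 13.6% of all genes tested. The median difference of the 13 markers was 0.57, and 0.47 without Loxp replicates 3 and 4. C1qa, a complement component made by macrophages, had 1759 to 2931 normalized counts in Cre and 729 to 1558 in Loxp, a difference of 1.10 ± 0.22 (SE, limma, adjusted p = 0.0796). Cd14, the lipopolysaccharide coreceptor, differed by 1.00 ± 0.23 (adjusted p = 0.0796). C1qa and Cd14 have the 2 largest of the 13 differences, and without Loxp replicates 3 and 4 they were 0.75 and 0.69. The 3 smallest were those of Mertk, Cd163 and Cd68, at -0.17, 0.06 and 0.18 with all libraries and 0.13, 0.26 and 0.07 without those. Of the 10 dendritic cell markers, 9 were tested and 0 passed (limma, and 0 with voom). At an unadjusted p under 0.05, 4 (Clec10a, Batf3, Xcr1 and Fscn1) were higher, against 13.6% of all genes tested. The median of the dendritic cell markers was 0.33, and 0.29 without Loxp replicates 3 and 4. Their sum was 2506 to 3748 in Cre and 2190.5 to 2628 in Loxp, with overlap. Fscn1 was the largest part of this sum in each library, with means of 1666 in Cre and 1298 in Loxp. Clec10a, a lectin of dendritic cells and macrophages, differed by 1.00 ± 0.24 (adjusted p = 0.0796), while Itgax and Clec9a differed by -0.03 and -0.10 (adjusted p = 0.959 and 0.858). Without Loxp replicates 3 and 4 these were 0.71, 0.06 and -0.06. Batf3, Xcr1 and Fscn1 differed by 1.25, 0.85 and 0.36 (limma, adjusted p = 0.104, 0.117 and 0.152). Without those libraries they differed by 1.01, 1.10 and 0.18. Of the 9 tested markers, 7 estimates were above 0 and 2 below with all libraries.

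The 6 class II genes other than Ciita, summed and divided by the macrophage marker sum, gave 0.925 to 1.29 in Cre and 0.722 to 1.18 in Loxp, ranges that overlapped. Divided by C1qa, C1qb and C1qc they gave 2.86 to 4.22 in Cre and 2.75 to 3.83 in Loxp, also with overlap. Divided by Csf1r they gave 10.4 to 12.6 in Cre and 6.62 to 10.3 in Loxp, and divided by the sum of the leukocyte markers Ptprc, Cd53, Laptm5, Coro1a and Cd52 they gave 8.75 to 10.3 in Cre and 6.15 to 8.57 in Loxp, both without overlap. Divided by Adgre1 they gave 38.5 to 54.8 in Cre and 23.2 to 46.8 in Loxp, and by Ptprc 70.3 to 111 and 32.5 to 98.3. Clec10a gave 20.1 to 33.1 and 21.5 to 35.1, and Itgax 296 to 575 and 139 to 297, all with overlap. Whether the groups overlap therefore depends on the marker used. Those without overlap lay close, at 10.4 against 10.3 for Csf1r and 8.75 against 8.57 for the leukocyte markers. All these ratios use the values that chose the genes. The part of these cells in the class II differences was not tested.

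The leukocyte markers summed to 1633 to 2278 normalized counts in Cre and 1161 to 1610 in Loxp. Their median difference was 0.59, and 0.29 without Loxp replicates 3 and 4. None passed (limma and voom, 0 of 5). At an unadjusted p under 0.05, 2 (Laptm5 and Coro1a) were higher, against 13.6% of all genes tested. Laptm5, Coro1a and Ptprc, the general leukocyte marker, differed by 0.59, 0.93 and 0.03, and without those libraries by 0.50, 0.29 and 0.12. B cells also carry class II. Of the B cell markers, Cd79a, Cd79b and Ighm were tested, with a median of 0.16, and 0.05 without Loxp replicates 3 and 4, and Ms4a1, Pax5, Cd22 and Fcrla had at most 16.1 normalized counts in any library. Of 8 T and NK cell markers only Cd3e and Nkg7 were tested, at -0.37 and 1.65 (limma, adjusted p = 0.404 and 0.166), and at -0.22 and 0.45 without Loxp replicates 3 and 4, and Cd4 had at most 25.02 normalized counts. Fibro-adipogenic progenitor markers had a median of 0.41, endothelial markers of -0.16, muscle fibre markers of -0.08 and adipocyte markers of 0.18, and without Loxp replicates 3 and 4 these were 0.25, 0.02, -0.07 and -0.05. Heart markers had a median of 1.03, and of 0.01 without Cre replicate 8. No gene of these lists passed (limma, and 0 with voom). At an unadjusted p under 0.05, 13.6% of all genes tested were higher. Higher at that level were, beside Nkg7, 4 progenitor markers (Cd34, Clec3b, Pi16 and Ly6a) and 1 muscle fibre marker, Pvalb, named after their values were seen.

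The genes most like the class II chains across libraries were found by their correlation with the mean log2 deviation of H2-Aa, H2-Ab1, H2-Eb1 and Cd74. Over the 8 libraries the closest genes outside the set were Pigt (r = 0.99), Mettl18 (0.99), Csrp2 (0.98), Mcpt4 (0.98), a mast cell protease, and Hexa (0.98), a lysosomal hexosaminidase. H2-DMa reached 0.94, H2-DMb1 0.88 and Ciita 0.51, while the 0.95 quantile over all genes tested was 0.87. These values of r contain the difference between Cre and Loxp on which the class II genes were chosen. Nothing is therefore read from where those genes lie against the quantile. With each group's mean subtracted, which leaves the variation within groups, the closest were Pigt (0.99), Gemin6 (0.99), Tbc1d10b (0.98), Srf (0.98) and Mylk2 (0.97), with H2-DMa at 0.86, Ciita at 0.40 and H2-DMb1 at 0.39, and a 0.95 quantile of 0.80. All points share the same 8 libraries, and Loxp replicates 3 and 4 lie far from the rest on the first principal component, so the values describe likeness in these libraries only.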

How the data were processed

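The members and all gene lists were chosen with earlier results of these data known. Per the labels' protocols, a Norgen Biotek kit served to extract RNA and a NEBNext Ultra II kit to build libraries. Per the submitters' processing notes, the tools were STAR, HTSeq, DESeq2, FastQC and cutadapt, and the build was GRCm38. The strand setting, annotation and tool versions were not given in the sources used here. Values deposited by the authors are on a log2 scale, and the numbers fit log2(normalized count + 1): with the log undone, 100% of low values were whole reads within 0.1 of a read in each library. Normalized counts are those values with the log undone, and are not divided by length except where said. Of 54091 rows, 27189 were above 0, and 27 names turned into dates by a spreadsheet were restored through their Entrez identifiers.

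The test, limma 3.58.1 (R 4.3.3), took genes whose normalized count averaged 10 or more and ran on the deposited log2 values, with the trend and robust options and Benjamini-Hochberg adjustment over all genes at 0.05. A count test was not run, since the deposited unit is log2, and voom on the recovered reads was an alternative. Differences are Cre minus Loxp on the log2(normalized count + 1) scale, on which changes of low genes come out too small. The fit was checked on simulated data. Libraries of a group differed from each other far beyond sampling noise (chi-square per gene 36.1 to 276 over 12 pairs), and each counted as a sample. The length and GC trend was a loess curve per library with a span of 0.5, over the 99.5% of tested genes with a GENCODE M21 annotation. Coordinates and exon overlaps come from that annotation of GRCm38. The lists of other genes name up to 4 members, those of smallest p. Other genes, including the cell type markers named, were picked after their values were seen. Tables used pandas 2.3.3, scipy 1.17.1 and numpy 2.4.6 under Python 3.11.15, and figures used matplotlib 3.10.9. Depth and floors cover counting error only.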

Additional observations from a re-analysis of the deposited data

Results flagged for a closer look

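Groups of 4 libraries were examined on the log2 scale for a highest or lowest value that stands apart. Its gap to its neighbour, as a share of the group's range, had to be above Dixon's critical value. Of 46 groups examined 4 were marked, and chance alone marks about 1 in 20. In Loxp libraries H2-DMb1 was highest in replicate 2, at 179 normalized counts against 148 to 150.02 in the others. On the log2 scale the gap was 0.9128 of the range. The mean log2 deviation of the costimulatory genes was also highest in Loxp replicate 2 (gap 0.8854 of the range), at 0.41 against -0.16 to -0.10. The same library was highest for the B cell markers (gap 0.9121), at 0.35 against -0.29 to -0.23. In Cre libraries the heart markers were highest in replicate 8 (gap 0.9461), at 4.46 against -0.88 to -0.59. Without Cre replicate 8 the median difference over the 7 class II genes was 0.94.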

How the results depend on the processing

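No paired analysis was possible because the Cre and Loxp libraries share no replicate numbers. Over 21 alternatives, the 6 class II genes other than Ciita were higher in Cre in each, and Ciita in 20, the exception being -0.02 without Loxp replicates 3 and 4 and Cre replicate 8, an alternative chosen after seeing the data. The median over the 7 genes was 0.58 without Loxp replicates 3 and 4, 0.52 without them and with the length and GC trend removed, and 0.57 without them and Cre replicate 8, and it ranged from 0.78 to 1.03 with 1 library left out. The number of genes past the threshold changed with the variance model and with which library was left out. It was 1 with all libraries, 2 with no filter on low values, 2 with equal totals, 7 without the trend and robust options, 4 with the length and GC trend removed and 1201 with sample quality weights. With 1 library left out it ranged from 1 to 2048, with 1722 without Loxp replicate 1, 2048 without Loxp replicate 2 and 2 without Cre replicate 6. The 6 class II genes other than Ciita were past the threshold with sample quality weights, without Loxp replicate 1 and without Loxp replicate 2. In these fits 7.67%, 11.0% and 13.1% of all genes tested were past it. H2-DMb1 was past it without the trend and robust options (0.0447% of all genes), and Cd74 with the length and GC trend removed (0.0257%). None of the 7 was past it in the other fits. Since the genes were chosen on this contrast, nothing is read from their being past the threshold. The cause of the changes in the number of genes past the threshold was not tested. In the Acot2 comparison the direction and the call were kept throughout. Depth limits Ciita most, with 45 reads in its lowest library.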
